A study of Mus musculus with 8 samples.

Results

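The calcium/calmodulin-dependent kinases (CaM kinases) of the mouse cortex were followed through 10 genes, Camk2a, Camk2b, Camk2d, Camk2g, Camkk1, Camkk2, Camk1, Camk1d, Camk4 and Camkv. They were picked by gene name from the deposited expression values of 13996 genes, and all 10 were found. Cortexes came from 8 male C57BL/6 mice, 4 kept on a conventional diet (normal mice) and 4 given a diet with 60% fat by weight (high fat mice). Feeding lasted 8 weeks from an age of 8 weeks, so that every mouse was 16 weeks old at sampling. Each mouse gave 1 library of total RNA depleted of ribosomal RNA. Levels are FPKM, in which fragments of a transcript are divided by its length in kilobases and by the number of mapped reads, which allows levels of different genes to be compared. Depth was not used here, as read counts are unknown. The comparison asks which of these genes had another level after the high fat diet.

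Calcium that enters an active neuron binds calmodulin, and the complex releases these kinases from their own inhibitory segment. CaMKII, made from the Camk2 genes, assembles into large rings, is very abundant at excitatory synapses and can stay active after the calcium signal by phosphorylating itself, a step tied to synaptic plasticity. CaMKI and CaMKIV act as single chains that the upstream kinases CaMKK1 and CaMKK2 switch on by phosphorylating their activation loop, and CaMKV has the kinase fold without kinase activity.

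Diets were compared on log2(FPKM + 0.1) with limma, a linear model across all genes whose two-sided p-values were adjusted by Benjamini-Hochberg over the 13982 genes whose mean FPKM reached 1 and that were never listed at 0. All 10 CaM kinase genes were within that filter. A gene passed the threshold when its adjusted p was below 0.05, and log2 fold changes are high fat diet over normal diet on that log2 scale. The p-values set the diet difference against the spread between mice of the same diet, with that spread moderated across all genes.

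The libraries differed in regional markers, and this may bear on the comparisons given here. Of the cerebellum markers, 10 of 12 were measured, and their summed FPKM was 27.2, 241.0, 335.4 and 81.0 in normal mice 1 to 4 and 27.5, 26.6, 22.6 and 25.4 in high fat mice 1 to 4. Normal mice 2 and 3 stood far above the other mice, normal mouse 4 lay between, and the sum of normal mouse 1 was at the level of the high fat mice. Cbln1 was the most abundant gene of that list, and Gabra6, a receptor subunit of cerebellar granule cells, was at 1.7, 46.5, 61.7 and 12.2 FPKM in normal mice and at 0, 0.1, 0.1 and 0.2 in high fat mice, so it was above the high fat mice in normal mouse 1 too. Cbln3 was at 1.6, 37.3, 56.1 and 12.5 FPKM in normal mice and at 0.2, 0.2, 0.3 and 0.6 in high fat mice. In the list 4 of 9 tested genes were called lower on the high fat diet. Without normal mouse 1 it was 9 of 9, and without normal mouse 4 it was 6 of 9. With the list itself as a covariate 1 of 9 was called lower and 1 higher. That covariate is the mean of these same genes, so this count cannot show whether they changed. Several of these genes, Cbln3 among them, reached the filter only through the normal mice and lay near the rounding step after the high fat diet, so their calls and fold changes rest on the filter and the constant and are not read further.

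Striatum markers separated the diets completely. Their summed FPKM was 452.3, 371.2, 351.9 and 244.7 in normal mice and 81.6, 81.8, 89.9 and 85.1 in high fat mice, and 10 of 10 measured genes were lower. Penk, the most abundant of them, was at 131.5, 114.4, 118.5 and 71.3 FPKM in normal mice, against 9.3 to 12.3 after the high fat diet, a log2 fold change of -3.24. Adora2a was at 5.7 to 13.1 FPKM in normal mice and at 0.4 to 0.6 after the high fat diet, and Drd2 was at 4.2 to 9.3 and 0.3 to 0.7. Both reached the filter only through the normal mice, and their fold changes depend on the constant. The 10 of 10 held with the cerebellum list as a covariate and without normal mice 2 and 3, but it counts Adora2a and Drd2. With a mean FPKM of at least 5 required, which leaves both out, 7 of 7 striatum markers were lower. Markers of cortical excitatory neurons, the cells richest in CaMKII, went the other way, with 7 of 10 higher and 1 lower. In the fit with the cerebellum list as a covariate 2 of the 10 were higher and 0 lower, and without normal mice 2 and 3, 5 were higher and 0 lower, with medians of 0.11 and 0.28 against 0.585. Their sum was 419.4, 318.6, 297.8 and 446.2 in normal mice and 498.1, 523.5, 581.4 and 490.4 in high fat mice. Slc17a7, a vesicular glutamate transporter and the most abundant of them, was at 290.4, 218.7, 209.5 and 315.8 FPKM in normal mice and at 337.1, 354.0, 403.9 and 340.3 in high fat mice. Fezf2 had a log2 fold change of 1.23 and passed in all 17 alternatives, and Tbr1 had 1.04 and lost its call in the covariate fit (adjusted p = 0.187, in a range from 0.00225 to 0.187). None of these excitatory markers was at 0 in any mouse. In bulk samples, fewer cells of a type and less RNA per cell cannot be told apart. The part of these differences in tissue makeup in the changes of the CaM kinases was not tested, and 2 further fits are given beside each CaM kinase gene and, for some partner genes and lists, one with the mean log2 level of the cerebellum list as a covariate and one without normal mice 2 and 3.

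**Figure D1:**
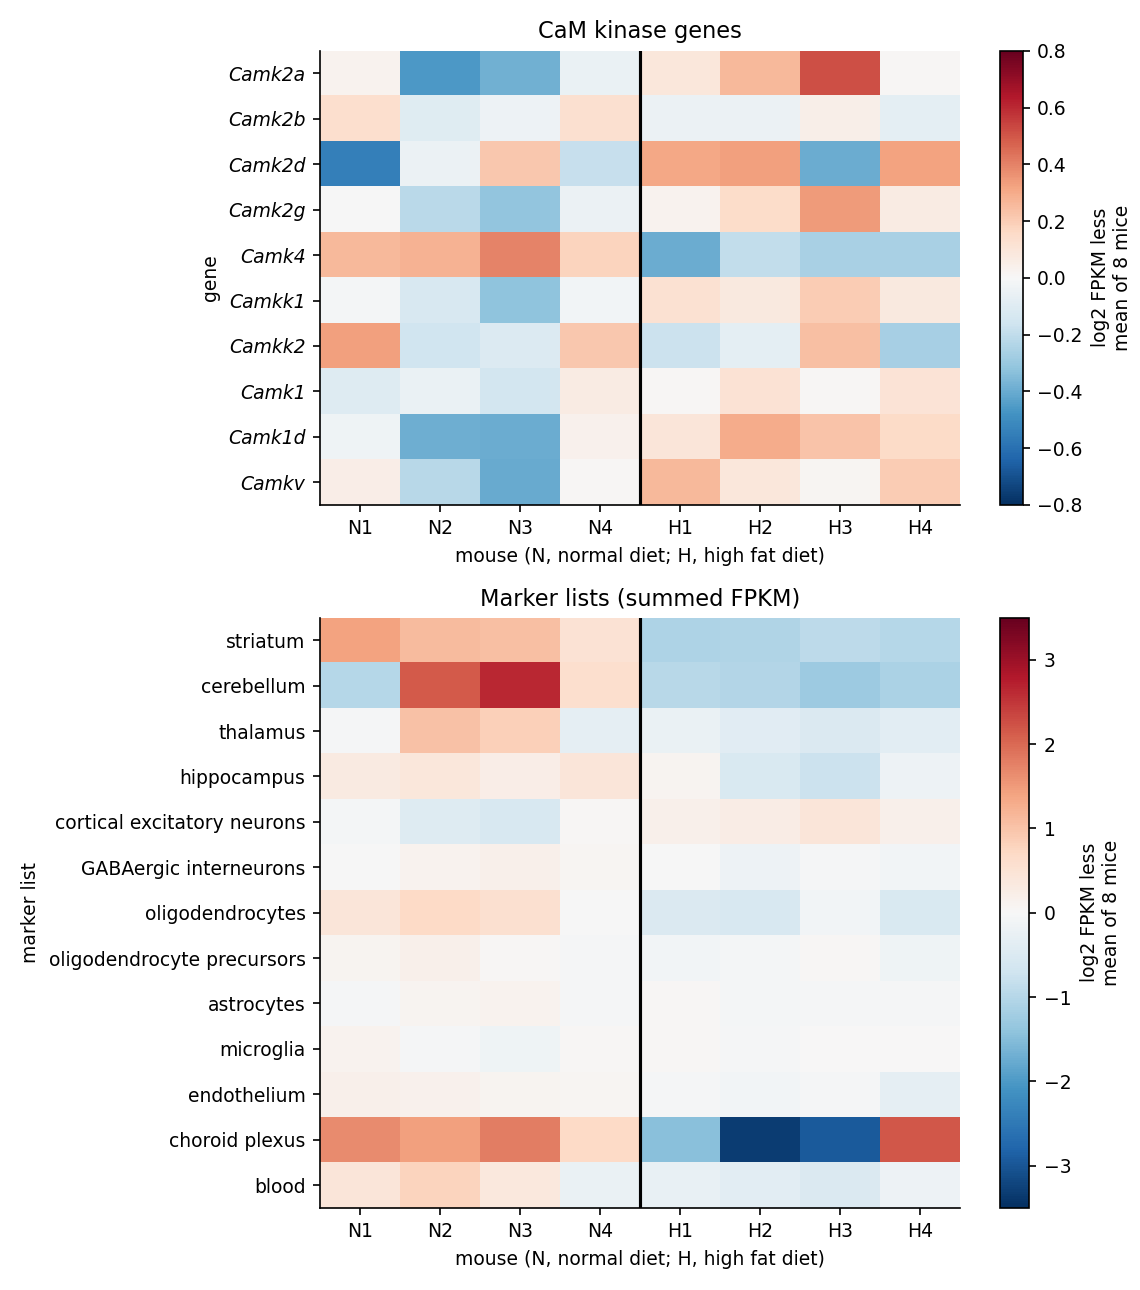
Heat maps of the 10 CaM kinase genes (upper) and of the summed FPKM of 13 marker lists (lower) in each mouse, as log2 FPKM less the mean of the 8 mice; N1 to N4 are normal mice and H1 to H4 high fat mice. Normal mice 2 and 3 have high cerebellum sums (241.0 and 335.4 FPKM) and low Camk2a (149.1 and 156.8 FPKM), and striatum sums separate the diets.

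Of the 10 CaM kinase genes, 5 passed the threshold in limma. Camk2a, Camk2g, Camkk1 and Camk1d were higher on the high fat diet, 4 of 10, where 17.7% of all genes tested were called higher. Camk4 was the 1 gene called lower, where 15.3% of all genes tested were, so this count is near the background. The diets did not overlap for 4 of 10 genes (Camk2g, Camkk1 and Camk1d higher, Camk4 lower), not far from the 31.9% of all genes tested that did so. No CaM kinase gene passed both the threshold of limma and a change over 50% (1.5-fold), with 0 of 10 also at an unadjusted p below 0.05, whereas 7.13% of all genes tested passed both. The median log2 fold change was 0.26 over the 10 genes and 0.003 over all genes tested.

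The genes differed more from one another than between diets. In normal mice Camk2b (mean 179 FPKM) and Camk2a (178) were the highest, and each exceeded the other in 2 of 4 mice. Camkv (132) came next, followed by Camk2g (69.1), Camkk2 (59.4), Camk4 (41.0), Camk1 (37.2), Camkk1 (36.5), Camk2d (33.5) and Camk1d (21). The ranges of Camk4, Camk1, Camkk1 and Camk2d overlapped from neighbour to neighbour, so their order is not set beyond the spread between mice. In high fat mice Camk2a (240.5) stood above Camk2b (171) in 4 of 4 mice without overlap, and Camk4 (27.9) had moved down to the level of Camk1d (27.3), whose range it overlapped. Camk2b and Camkv overlapped there too.

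**Figure D2:**
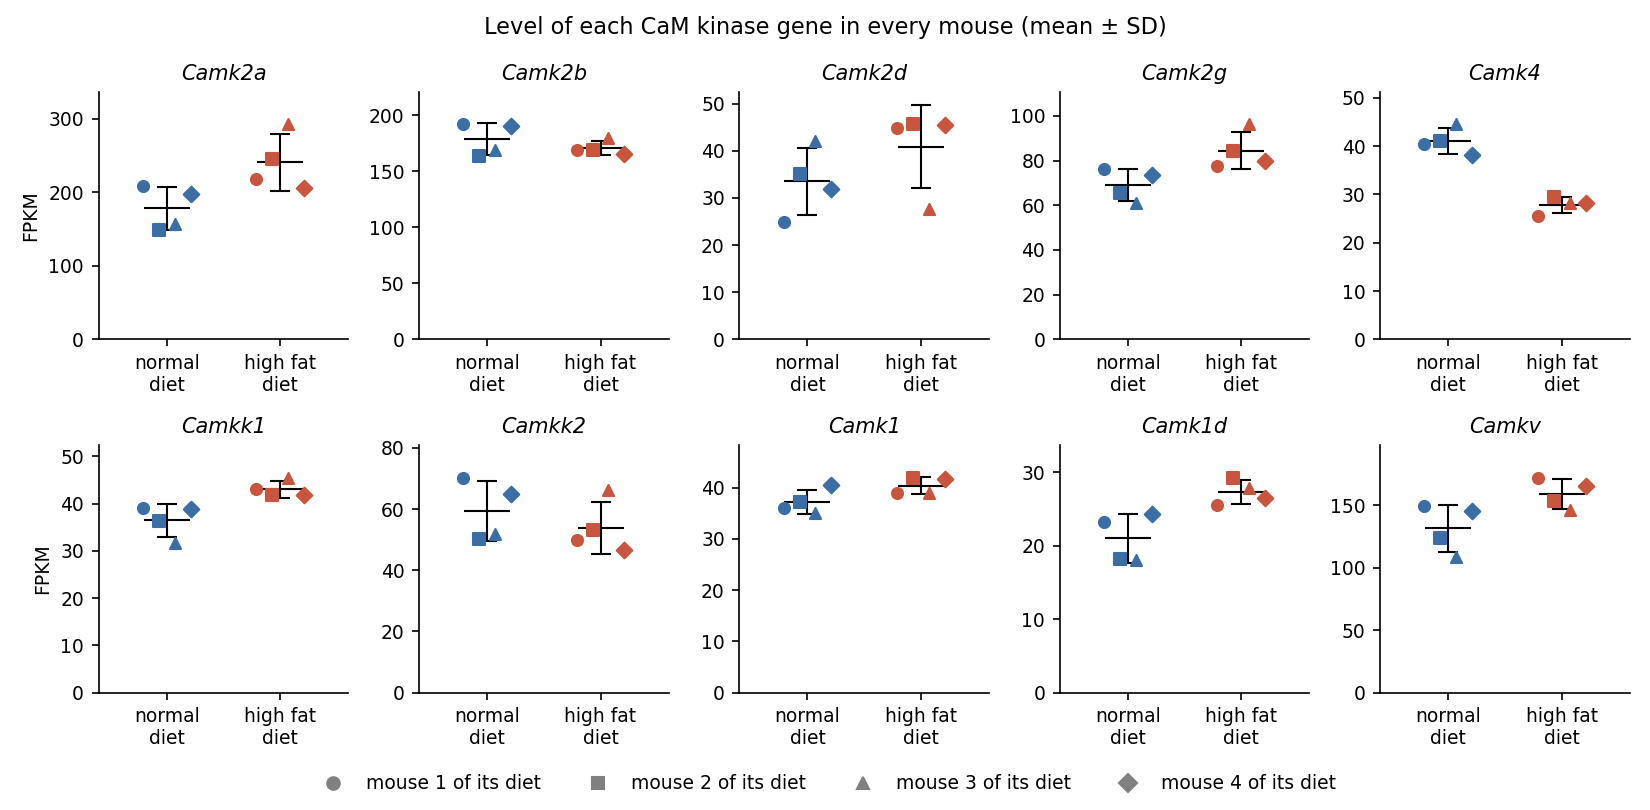
FPKM of each CaM kinase gene in each mouse of the normal diet and of the high fat diet; symbols are single mice, and bars are mean ± SD. Camk4 falls from 38.1 or more to 29.4 or less, and 1 high fat mouse has Camk2d at 27.6 while the other 3 lie between 44.9 and 45.6.

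Camk2a encodes CaMKII alpha, the subunit that dominates in excitatory neurons of the forebrain (chromosome 18 of GRCm38, 60925618 to 60988152, plus strand). Its FPKM was 208.6, 149.1, 156.8 and 197.4 in normal mice 1 to 4 and 218.2, 245.6, 292.4 and 205.8 in high fat mice 1 to 4. Normal mice 2 and 3 were low, high fat mouse 3 was high, and the ranges overlapped because high fat mouse 4 lay just under normal mouse 1. The mean rose from 178 ± 29.4 to 240.5 ± 38.4 (SD, n = 4 each), which on the log2 scale was 0.44 with a standard error of 0.13 (adjusted p = 0.0334 in limma). That call was lost when some single libraries were left out. Without normal mouse 2, normal mouse 3, high fat mouse 2 or high fat mouse 3 the adjusted p from limma was 0.0877, 0.0816, 0.079 and 0.0781, and it was 0.0522 without a variance trend. The log2 fold change without those mice in turn was 0.36, 0.38, 0.42 and 0.34. With the cerebellum list as a covariate the log2 fold change was 0.08 (adjusted p = 0.783), and without normal mice 2 and 3 it was 0.23 (adjusted p = 0.233). Over all 17 alternatives the adjusted p lay between 0.0198 and 0.783.

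Camk2b encodes CaMKII beta, the subunit that binds actin filaments in spines (chromosome 11, 5969644 to 6066362, minus strand). Its FPKM was 192.1, 163.5, 169.5 and 190.9 in normal mice and 169.1, 169.3, 180.1 and 165.4 in high fat mice. All high fat diet values lay inside the range of the normal mice. The log2 fold change was -0.06 with a 95% interval from -0.20 to 0.08 (adjusted p = 0.461 from limma). It was -0.23 with the cerebellum list as a covariate (adjusted p = 0.0832) and -0.16 without normal mice 2 and 3 (adjusted p = 0.0594). Single mice moved it either way, to -0.11 without normal mouse 2 (adjusted p = 0.234) and to -0.03 both without normal mouse 1 (adjusted p = 0.763) and without normal mouse 4 (adjusted p = 0.737). Camk2b passed in none of its 17 alternatives, where the adjusted p lay between 0.0594 and 0.763.

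Of the 4 shares of the CaMKII sum, 1 separated the diets without overlap. The summed FPKM of the 4 genes was 501.6, 413.2, 429.5 and 493.9 in normal mice and 509.9, 544.8, 596.3 and 496.2 in high fat mice, with overlapping ranges. Camk2b made up 38.3%, 39.6%, 39.5% and 38.7% of that sum in normal mice and 33.2%, 31.1%, 30.2% and 33.3% in high fat mice. Its share was lower in every high fat mouse than in any normal mouse, and it hardly varied within the normal diet. The shares of Camk2a (36.1% to 41.6% in normal mice, 41.5% to 49.0% in high fat mice), Camk2d and Camk2g overlapped between diets. Camk2a overlapped only through normal mouse 1 and high fat mouse 4. Shares are parts of 1 sum, so a lower share of Camk2b goes with higher shares elsewhere. The FPKM of Camk2b itself overlapped between diets, at a log2 fold change of -0.06. The ratio of Camk2a to Camk2b was 1.09, 0.912, 0.925 and 1.03 in normal mice and 1.29, 1.45, 1.62 and 1.24 in high fat mice. The ratio separated the diets without overlap (0.989 ± 0.0846 against 1.40 ± 0.172, SD, n = 4 each). As a difference of fitted changes, Camk2a moved by 0.50 more than Camk2b on the log2 scale, by 0.31 with the cerebellum list as a covariate and by 0.40 without normal mice 2 and 3. The ratio is a description of genes chosen with earlier results known and has no test.

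**Figure D3:**
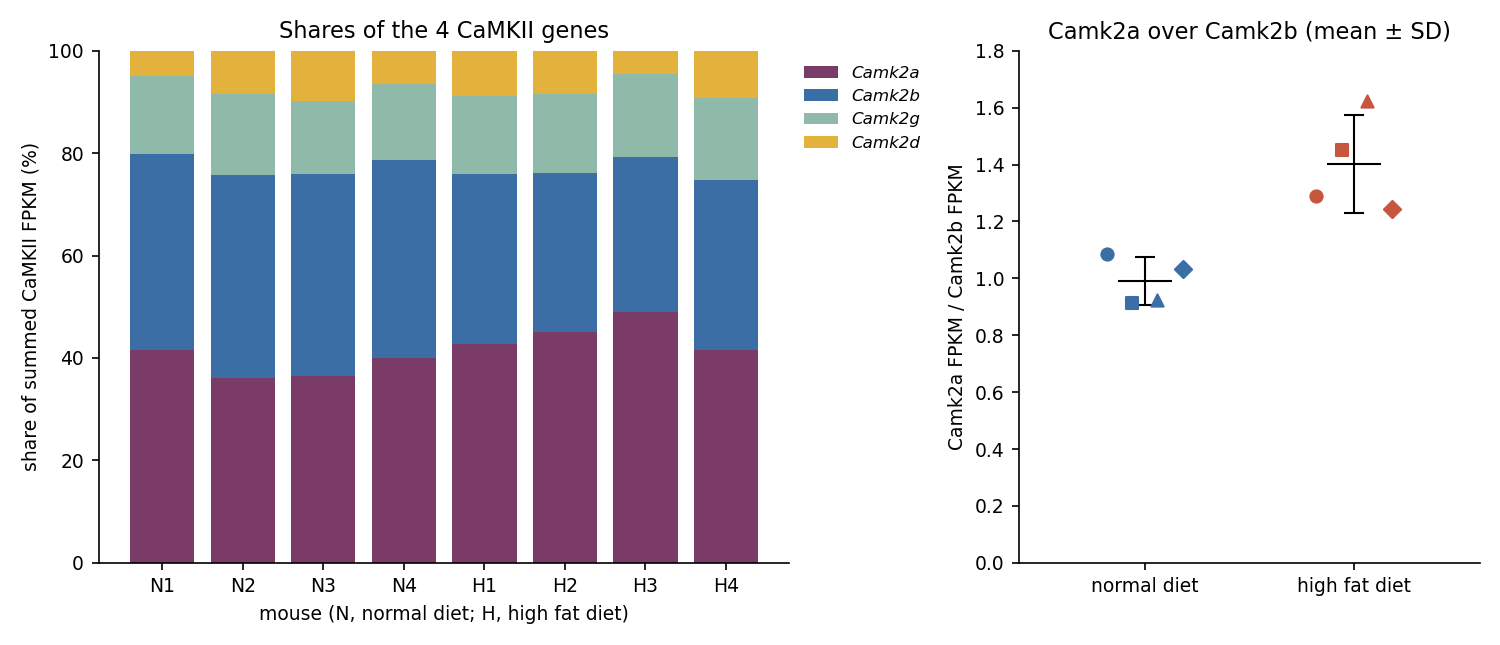
Left, share of each CaMKII gene in the summed CaMKII FPKM of a mouse, in percent; right, Camk2a FPKM over Camk2b FPKM per mouse with mean ± SD. The Camk2b share lies between 38.3% and 39.6% on the normal diet and from 30.2% to 33.3% on the other.

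Camk2g encodes CaMKII gamma, which can carry calcium-bound calmodulin to the nucleus (chromosome 14, 20734875 to 20794088, minus strand). Its FPKM was 76.1, 65.5, 61.1 and 73.7 in normal mice and 77.7, 84.3, 96.2 and 79.6 in high fat mice. Every high fat diet value lay above every normal value, though the nearest mice differed by little. Camk2g rose from 69.1 ± 7.0 to 84.5 ± 8.31 (SD, n = 4 each), which on the log2 scale was 0.29 with a standard error of 0.09 (adjusted p = 0.0296 in limma). Without normal mouse 2, normal mouse 3, high fat mouse 2 or high fat mouse 3 the adjusted p from limma was 0.0768, 0.0693, 0.0672 and 0.0671. The log2 fold change in these fits was 0.27, 0.23, 0.29 and 0.23. With the cerebellum list as a covariate the log2 fold change was 0.07 (adjusted p = 0.712) and without normal mice 2 and 3 it was 0.17 (adjusted p = 0.192), within a range of adjusted p from 0.0138 to 0.712 over its 17 alternatives.

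Camk2d encodes CaMKII delta, known best from heart muscle and present in brain at lower levels (chromosome 3, 126596302 to 126846326, plus strand). Its FPKM was 24.8, 35.1, 42.1 and 31.9 in normal mice and 44.9, 45.6, 27.6 and 45.4 in high fat mice. High fat mouse 3 stood apart from the other 3 and lay within the range of the normal mice. The log2 fold change was 0.28 with a 95% interval from -0.15 to 0.71 (adjusted p = 0.280 from limma). Without high fat mouse 3 it was 0.46 (adjusted p = 0.0505), and without normal mouse 1 it was 0.15 (adjusted p = 0.556). It was 0.77 with the cerebellum list as a covariate (adjusted p = 0.0731) and 0.51 without normal mice 2 and 3 (adjusted p = 0.124). The adjusted p ranged from 0.0505 to 0.556 over its 17 alternatives. Camk2d was thus not called in any fit, and its interval includes both no change and a rise.

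The Camk2 genes are close relatives, and fragments could in principle be assigned to the wrong one. Stretches of 100 bases, the length of 1 read, were compared with the reference transcripts (GENCODE M21 on GRCm38). None of those from any CaM kinase coding transcript occurred in a transcript of another gene, read in the transcribed direction. Only exact matches of that length were sought. Exons of Camk1 and Camk4 that overlap genes on the opposite strand are not covered by this. The segment around the autophosphorylated threonine and the calmodulin-binding site is shown for 3 CaMKII genes because it is shared in function by all of them and shows how far their bases differ; the codon of the threonine is in capitals. It spans 2 exons in each, at chr11:5988114-5989014 on the minus strand (codon 287 of Camk2b-202), chr3:126797726-126798267 on the plus strand (codon 287 of Camk2d-221) and chr14:20760157-20760456 on the minus strand (codon 285 of Camk2g-217), all within the coding sequence.
Camk2b: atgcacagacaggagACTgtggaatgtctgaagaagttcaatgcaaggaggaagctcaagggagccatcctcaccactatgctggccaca
Camk2d: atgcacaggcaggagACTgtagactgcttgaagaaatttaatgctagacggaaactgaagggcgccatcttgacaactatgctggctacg
Camk2g: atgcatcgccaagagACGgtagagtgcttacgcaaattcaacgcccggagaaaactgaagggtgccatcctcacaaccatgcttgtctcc
Of these 90 bases, 18 differed between Camk2b and Camk2d (15 of them at the third position of a codon), 27 between Camk2b and Camk2g (20) and 26 between Camk2d and Camk2g (18). The longest run of identical bases was 11 in each pair.

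Camkk1 and Camkk2 encode the kinases upstream of CaMKI and CaMKIV. Camkk1 (chromosome 11, 73019008 to 73042073, plus strand) was at 39.1, 36.2, 31.6 and 38.9 FPKM in normal mice and at 43.0, 41.7, 45.5 and 41.7 in high fat mice. The diets did not overlap, and normal mouse 3 was the lowest. Camkk1 rose from 36.5 ± 3.49 to 43.0 ± 1.79 (SD, n = 4 each), which on the log2 scale was 0.24 with a standard error of 0.07 (adjusted p = 0.0266 in limma). The adjusted p from limma was 0.0598 without normal mouse 2, 0.0596 without high fat mouse 1 and 0.0674 without high fat mouse 3, at log2 fold changes of 0.24, 0.24 and 0.21. It was 0.701 with the cerebellum list as a covariate, at a log2 fold change of 0.06, and 0.0979 without normal mice 2 and 3, at 0.14, within a range from 0.0189 to 0.701 over its 17 alternatives.

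Camkk2, which also activates the energy sensor AMPK (chromosome 5, 122731170 to 122779409, minus strand), was at 70.3, 50.2, 51.9 and 65.0 FPKM in normal mice and at 49.8, 53.1, 66.1 and 46.6 in high fat mice. Normal mice 1 and 4 and high fat mouse 3 were high and the other 5 mice low, so both diets were spread over the same range. The log2 fold change was -0.14 with a 95% interval from -0.43 to 0.16 (adjusted p = 0.451 from limma). It was -0.50 with the cerebellum list as a covariate (adjusted p = 0.0729) and -0.34 without normal mice 2 and 3 (adjusted p = 0.0941). Single mice moved it either way, to -0.24 without high fat mouse 3 (adjusted p = 0.17), -0.21 without normal mouse 2 (0.276), -0.05 without normal mouse 1 (adjusted p = 0.788), -0.09 without normal mouse 4 (0.661) and -0.07 without high fat mouse 4 (0.727). Over its 17 alternatives the adjusted p lay between 0.0729 and 0.788.

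Camk1 and Camk1d encode CaMKI alpha and CaMKI delta, which act in the growth of axons and dendrites. The coding segment around the activation loop threonine, the residue that CaMKK phosphorylates, is shown for both with the codon of that threonine in capitals, as the point where the 2 levels of the cascade meet. It spans 2 exons at chr6:113338167-113338319 on the minus strand (codon 177 of Camk1-201) and chr2:5339238-5354708 on the minus strand (codon 180 of Camk1d-201).
Camk1: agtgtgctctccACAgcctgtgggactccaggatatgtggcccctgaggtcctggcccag
Camk1d: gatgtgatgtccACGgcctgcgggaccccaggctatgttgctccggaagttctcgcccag
The pair differed at 14 of 60 bases, 11 of them at the third position of a codon.

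Camk1d (chromosome 2, 5293457 to 5714515, minus strand) was at 23.3, 18.2, 18.1 and 24.4 FPKM in normal mice and at 25.5, 29.3, 27.9 and 26.5 in high fat mice. The diets did not overlap, and normal mice 2 and 3 were the lowest. Camk1d rose from 21 ± 3.32 to 27.3 ± 1.66 (SD, n = 4 each), which on the log2 scale was 0.39 with a standard error of 0.10 (adjusted p = 0.0185 in limma). Of the mice left out in turn, only high fat mouse 2 ended the call (adjusted p = 0.0559), at a log2 fold change of 0.35. The log2 fold change was 0.09 with the cerebellum list as a covariate (adjusted p = 0.628) and 0.19 without normal mice 2 and 3 (adjusted p = 0.0742), and over its 17 alternatives the adjusted p lay between 0.00728 and 0.628.

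Camk1 (chromosome 6, 113334124 to 113343984, minus strand) was at 36.0, 37.3, 35.0 and 40.5 FPKM in normal mice and at 38.9, 42.0, 39.0 and 41.7 in high fat mice. The ranges overlapped only through normal mouse 4. The log2 fold change was 0.12 with a 95% interval from -0.00353 to 0.24 (adjusted p = 0.122 from limma), and it was 0.16 without normal mouse 4 (adjusted p = 0.0380), the 1 alternative of 17 that passed. With the cerebellum list as a covariate it was 0.10 (adjusted p = 0.522) and without normal mice 2 and 3 it was 0.08 (adjusted p = 0.404), within a range of adjusted p from 0.0380 to 0.522. Exons of Camk1 overlap those of Ogg1 on the opposite strand. The libraries kept the strand, but the available descriptions do not say whether counting used it, so fragments of the pair may not have been told apart.

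Camk4 encodes CaMKIV, a mostly nuclear kinase that phosphorylates the transcription factor CREB (chromosome 18, 32934931 to 33191228, plus strand). Its FPKM was 40.4, 41.0, 44.5 and 38.1 in normal mice and 25.6, 29.4, 28.2 and 28.2 in high fat mice. The diets were far apart relative to the spread within each. Camk4 fell from 41.0 ± 2.65 to 27.9 ± 1.6 (SD, n = 4 each), a log2 fold change of -0.56 (standard error 0.06, 95% interval from -0.69 to -0.42, adjusted p = 0.000684 from limma). The ratio of the means was 0.679, short of the 1.5-fold minimum on the log2 scale. Camk4 was the only one of the 10 genes past the threshold in all 17 alternatives, with adjusted p from 0.000585 to 0.0223. With the cerebellum list as a covariate the log2 fold change was -0.47 (adjusted p = 0.0223), and without normal mice 2 and 3 it was -0.49 (adjusted p = 0.00492). Beside it, the striatum sum was lower in every high fat mouse, as given above, and the part of striatal RNA in the change of Camk4 was not tested. Exons of Camk4 overlap those of 2310026I22Rik on the opposite strand, with the same limit as for Camk1.

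Camkv encodes the pseudokinase CaMKV, which binds calmodulin and helps to maintain dendritic spines (chromosome 9, 107935674 to 107949691, plus strand). Its FPKM was 149.3, 123.5, 108.9 and 145.2 in normal mice and 172.3, 153.2, 146.0 and 165.6 in high fat mice. Only normal mouse 1 and high fat mouse 3 crossed between the ranges. The log2 fold change was 0.28 with a 95% interval from 0.06 to 0.51, and its adjusted p of 0.0557 from limma missed the threshold. The adjusted p was 0.0279 without normal mouse 1, 0.0385 without normal mouse 4 and 0.0354 after quantile normalization. With the cerebellum list as a covariate the sign turned, at -0.0109 (adjusted p = 0.962), and without normal mice 2 and 3 the value was 0.11 (adjusted p = 0.308), within a range from 0.0200 to 0.962 over its 17 alternatives.

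Within the normal diet the CaM kinase genes differed between libraries. Normal mice 2 and 3, with the highest cerebellum sums, were both below normal mice 1 and 4 in 7 of 10 genes (Camk2a, Camk2b, Camk2g, Camkk1, Camkk2, Camk1d and Camkv) and both above them in 2 (Camk2d and Camk4). Over all genes tested the shares were 27.3% below and 26% above, and the part of cerebellar RNA in these positions was not tested. Within the high fat diet, mouse 3 had the highest value of 5 genes (Camk2a, Camk2b, Camk2g, Camkk1 and Camkk2) and the lowest of 2 (Camk2d and Camkv). Its cortical excitatory sum of 581.4 FPKM was the highest of that diet. Its cerebellum sum was the lowest, in a span of only 22.6 to 27.5 FPKM. The part of tissue makeup in the positions of this mouse was not tested.

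**Figure D4:**
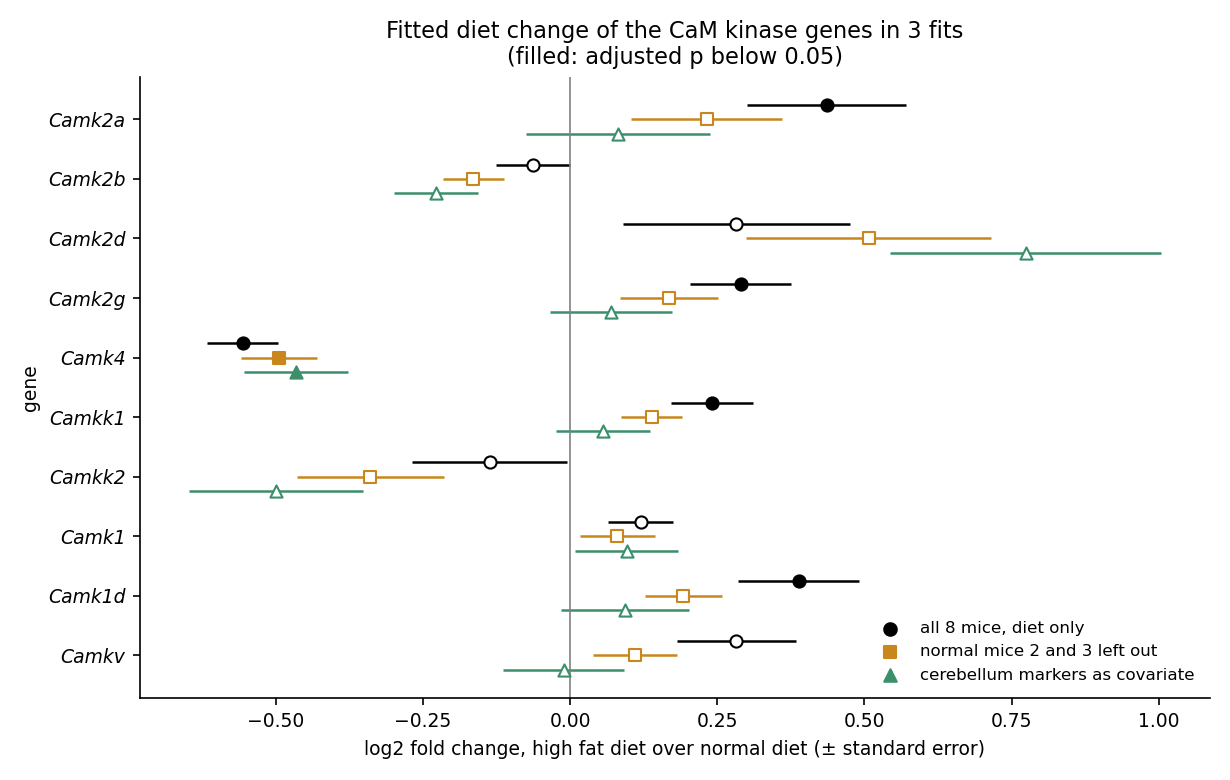
Log2 fold change (high fat diet over normal diet) of each CaM kinase gene with its standard error in the fit of all 8 mice, without normal mice 2 and 3, and with the cerebellum list as a covariate; filled symbols have an adjusted p below 0.05. Camk4 keeps its call in all 3, at -0.56, -0.49 and -0.47, and Camk2a goes from 0.44 to 0.23 and 0.08.

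The genes that supply, hold or oppose the CaM kinases were counted in 6 lists. Of all genes tested, 17.7% were called higher, 15.3% were called lower and 31.9% had no overlap between diets. The striatum list was not a covariate in any alternative. The part of striatal RNA in the changes of these partner genes was not tested. Among 12 calmodulin genes and calmodulin-binding proteins, 2 were called higher and 3 lower, with a median log2 fold change of -0.02. Calm2, a gene for calmodulin, was at 1402.3, 1243.1, 1183.4 and 1318.3 FPKM in normal mice and at 983.8, 980.9, 959.5 and 1029.7 in high fat mice. It fell without overlap, by a fitted log2 value of -0.38 (adjusted p = 0.00411 in limma), and the call was lost after quantile normalization (-0.16, adjusted p = 0.086, in a range from 0.00321 to 0.086 over its alternatives). Calm3 had a log2 fold change of -0.07 (adjusted p = 0.396). Pcp4, a small protein that speeds calcium exchange on calmodulin, was at 525.2, 577.6, 532.4 and 384.3 FPKM in normal mice and spread from 176.3 to 192.2 after the high fat diet. Pcp4 had a log2 fold change of -1.44 and its relative Pcp4l1 one of -1.05 (adjusted p = 0.00014 and 0.000126 from limma). Camta2 (0.50), a calmodulin-binding transcription activator, and Basp1 (0.28) were higher. The covariate fit gave Camta2 an adjusted p of 0.396 (in a range from 0.0107 to 0.396) and Basp1 one of 0.979 (in a range from 0.0165 to 0.979), the latter with the opposite sign. Both calls were also lost without normal mice 2 and 3, with Camta2 at 0.34 (adjusted p = 0.1) and Basp1 at 0.10 (adjusted p = 0.276). Basp1 had an adjusted p of 0.0491 with all mice and passed in 6 of 17 alternatives. Its call was lost without normal mouse 2 (0.125), normal mouse 3 (0.112) or any of high fat mice 1 (0.0865), 2 (0.114), 3 (0.106) and 4 (0.0599).

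Among 11 inhibitors and anchors of CaMKII, 4 were higher and 2 lower (median 0.20). Camk2n2, an inhibitor protein of CaMKII, was at 24.9, 27.5, 27.4 and 26.2 FPKM in normal mice and at 37.5, 35.4, 35.7 and 31.6 in high fat mice. It rose without overlap, by a fitted log2 value of 0.40 (adjusted p = 0.00176 in limma), and passed in all 17 alternatives, at 0.49 with the cerebellum list as a covariate. The more abundant inhibitor gene Camk2n1 was at 191.3, 134.0, 122.7 and 171.1 FPKM in normal mice and at 151.2, 190.5, 201.0 and 153.1 in high fat mice, with overlapping ranges and a log2 fold change of 0.18 (adjusted p = 0.375). Over its 17 alternatives Camk2n1 lay between -0.27 and 0.29, with the opposite sign in 2. Cdk5r1 had a log2 fold change of 0.25 and Actn4 one of 0.21. Rem2, a GTPase that binds CaMKII, had -1.23 and Actn2, an actinin that anchors it, -0.95. Rem2 and Actn2 passed in 16 of 16 alternatives they could enter. Actn4 lost its call without normal mouse 2 (adjusted p = 0.0553, in a range from 0.0177 to 0.344), and Cdk5r1 without normal mouse 2 (0.071), normal mouse 3 (0.0573), high fat mouse 2 (0.0652) or high fat mouse 3 (0.0665), in a range from 0.0125 to 0.714. In the covariate fit Cdk5r1 was at 0.05 and Actn4 at 0.135, and without normal mice 2 and 3 they were at 0.13 and 0.17, with both calls lost.

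Of 12 other kinases regulated by calmodulin, 2 were higher and 1 lower (median 0.07). Camk1g, which encodes CaMKI gamma, was at 11.4, 12, 9.1 and 10.8 FPKM in normal mice and at 15.2, 13.9, 18.4 and 14.3 in high fat mice. It rose without overlap, by a fitted log2 value of 0.51 (adjusted p = 0.00699 in limma). With the cerebellum list as a covariate it was at 0.37 (adjusted p = 0.182, in a range from 0.00616 to 0.182). The call held without normal mice 2 and 3, at 0.47 (adjusted p = 0.0242 in limma). Pnck, which encodes CaMKI beta, was at 26.6, 32.2, 31.1 and 29.3 FPKM in normal mice and at 35.7, 38.8, 28.7 and 39.1 in high fat mice. Only high fat mouse 3 lay within the normal range, and the log2 fold change was 0.25 (adjusted p = 0.0863). Dapk1 had 0.36 and Dclk3 -0.38 (adjusted p = 0.00329 and 0.017). With the cerebellum list as a covariate Dapk1 was at 0.19 (adjusted p = 0.128, in a range from 0.00283 to 0.128). Dapk1 kept its call without normal mice 2 and 3, at 0.26 (adjusted p = 0.0103 in limma).

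Calcineurin is the phosphatase that calmodulin activates and that works against CaMKII at synapses. Of 9 genes for it and its regulators, 1 was higher and 1 lower (median -0.12). Ppp3ca, its main catalytic subunit in brain, was at 526.3, 427.2, 396.5 and 459.7 FPKM in normal mice and at 328.6, 347.6, 360.6 and 320.7 in high fat mice. It fell without overlap, by a fitted log2 value of -0.41 (adjusted p = 0.00691 in limma), and passed in all 17 alternatives, at -0.67 with the cerebellum list as a covariate. The catalytic gene Ppp3cb had -0.08 (adjusted p = 0.320) and the regulatory subunit gene Ppp3r1 -0.24 (adjusted p = 0.0595). Cabin1, a calcineurin-binding inhibitor, had 0.38 (adjusted p = 0.00236). It had 0.28 with the cerebellum list as a covariate (adjusted p = 0.0833, in a range from 0.00154 to 0.0833). Cabin1 kept its call without normal mice 2 and 3, at 0.30 (adjusted p = 0.0153 in limma). In the covariate fit 2 of the 9 were lower and none higher.

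Of 7 phosphatase genes that act on CaM kinases, 5 were lower and none was higher (median -0.24). The largest changes of those called were -0.33 for Ppp1cc and -0.24 each for Ppp2ca, Ppp2cb and Ppp1ca, and 5 of 7 had no overlap between diets, where 15.3% of all genes tested were lower and 31.9% had no overlap. Their sum was 441.2, 428.0, 410.0 and 425.3 FPKM in normal mice and 377.8, 363.9, 370.1 and 383.2 in high fat mice. In the covariate fit 2 of the 7 were called lower, Ppp1ca at -0.35 and Ppp2ca at -0.27, and the median was -0.22. Ppp1cc lost its call there (-0.17, adjusted p = 0.154). Without normal mice 2 and 3, 5 of the 7 were called lower, at a median of -0.23. Of 24 substrates and downstream factors, 15 were higher and 2 lower (median 0.30). Syn1, a vesicle protein phosphorylated by CaMKI and CaMKII, was at 40.7, 30.7, 32.7 and 48.3 FPKM in normal mice and at 63.4, 76.8, 80.9 and 61.5 in high fat mice. Its diets did not overlap, and the fitted change was 0.90 (adjusted p = 0.00237 in limma). Crtc1 (0.64), Crebbp (0.62), both coactivators of CREB, and Mef2d (0.59) followed, while Prkaa1 (-0.23), a catalytic subunit of AMPK, and Gria1 (-0.17), a glutamate receptor subunit phosphorylated by CaMKII, were lower. Prkaa2, the other AMPK catalytic gene, went the opposite way, at 7.6, 6.4, 6.0 and 8.4 FPKM in normal mice and 9.7, 10, 10.7 and 10.3 in high fat mice. It rose without overlap, with 0.52 on the log2 scale (adjusted p = 0.00484 in limma). In the covariate fit it was at 0.26 (adjusted p = 0.203, in a range from 0.00176 to 0.203). Prkaa2 kept its call without normal mice 2 and 3, at 0.34 (adjusted p = 0.0174 in limma). Prkaa1 lost its call without normal mouse 2 (adjusted p = 0.0546) or normal mouse 3 (0.0518), in a range from 0.0136 to 0.522. It was also lost in the covariate fit (-0.09, adjusted p = 0.522) and without normal mice 2 and 3 (-0.15, adjusted p = 0.137). The call of Gria1 ended without normal mouse 3 (0.0817), normal mouse 4 (0.0742), high fat mouse 2 (0.0763) or high fat mouse 3 (0.0815), in a range from 0.0293 to 0.356. It also ended in the covariate fit (-0.13, adjusted p = 0.356) and without normal mice 2 and 3 (-0.17, adjusted p = 0.0868). The same held after quantile normalization (adjusted p = 0.0743), without a variance trend (0.0595) and with the replicate number as a block (0.0809). In the covariate fit 2 of 24 of these genes were called higher and none lower. The 2 were Crebbp at 0.55 (adjusted p = 0.0231) and Tiam1 at 0.47 (adjusted p = 0.019), and Crebbp passed in all 17 alternatives. Syn1 at 0.57, Crtc1 at 0.42 and Mef2d at 0.44 did not pass the threshold in that fit. Without normal mice 2 and 3, 12 of the 24 were higher and none lower. Syn1 at 0.66, Crtc1 at 0.50 and Mef2d at 0.50 were among those higher. The list median was 0.12 in the covariate fit and 0.24 without normal mice 2 and 3.

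**Figure D5:**
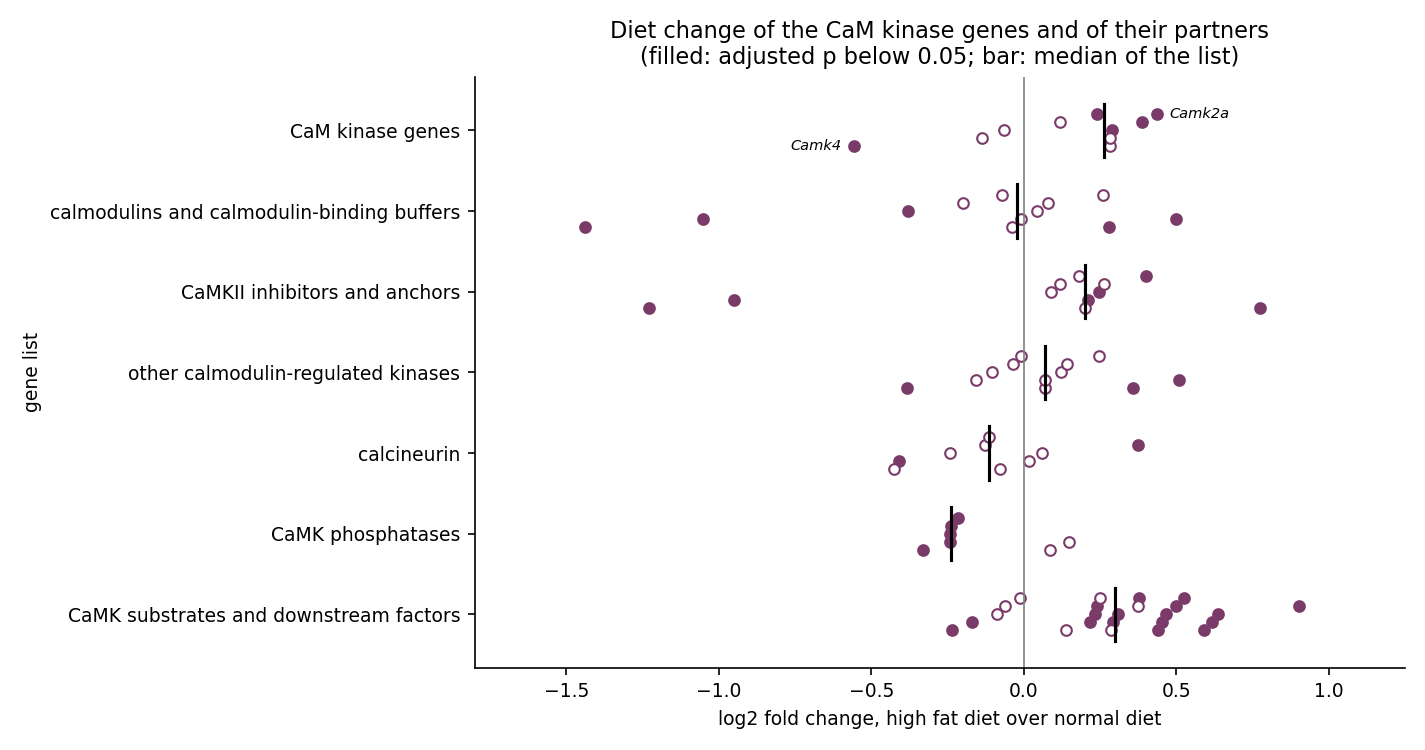
Log2 fold changes (high fat diet over normal diet) of the CaM kinase genes and of 6 lists of partner genes; each point is a gene, filled where the adjusted p is below 0.05, and bars are list medians. Medians range from -0.24 for the phosphatases to 0.30 for substrates and downstream factors.

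Other marker lists completed the picture of the libraries. Oligodendrocyte markers were lower for 9 of 9 genes, with sums of 2993.8, 3649.3, 3290.3 and 2222.0 FPKM in normal mice and 1589.6, 1532.9, 2118.6 and 1552.7 in high fat mice and Mbp as the most abundant gene. They were lower for 2 of 9 in the covariate fit and for 7 of 9 without normal mice 2 and 3, while their median log2 fold change was -0.71 and -0.70 against -0.87 in the main fit. Thalamus markers were lower for 3 of 9 genes, with sums of 72.7, 150.7, 132.3 and 59.4 FPKM in normal mice against 52.3 to 63.3 after the high fat diet, and Rora was the most abundant. The count was 0 in the covariate fit, 1 without normal mice 2 and 3, and 7 without normal mouse 4, and the median was 0.12 and -0.05 in the first 2 of these against -0.60. Hippocampus markers were lower for 2 of 5 genes, with sums of 21.3, 22.4, 19.9 and 23 FPKM in normal mice and 18.3, 11.9, 10.2 and 15 in high fat mice. Fibcd1 was the most abundant of them, and Spink8 was at 0.2 FPKM in high fat mouse 3, and none was called in the covariate fit or without normal mice 2 and 3, at medians of -0.43 and -0.47 against -0.68. Choroid plexus markers were lower for 2 of 5 genes, with sums of 666.1, 566.0, 726.6 and 342.6 FPKM in normal mice and 76.6, 20.9, 27.4 and 941.6 in high fat mice. Their most abundant gene Ttr was at 73.4, 18.6 and 24.4 FPKM in high fat mice 1 to 3 but at 920.7 in mouse 4. Without high fat mouse 4 all 5 of 5 were lower, but Folr1, Kcne2 and Clic6 then lay mostly below 1 FPKM after the high fat diet and reached the filter through the normal mice, so that count rests on the filter. Without normal mouse 4 it was 2, and without any other single mouse, in the covariate fit or without normal mice 2 and 3 it was 0. Blood markers were lower for 5 of 5 genes, led by Hbb-bs, with sums of 377.5, 479.7, 363.4 and 239.2 FPKM in normal mice and 233.6, 219.0, 199.1 and 247.4 in high fat mice. None of the 5 was called in the covariate fit or without normal mice 2 and 3, at medians of -0.53 and -0.47 against -0.68, and 4 or 5 were with any single mouse left out. GABAergic interneuron markers were higher for 2 and lower for 4 of 7, with Sst the most abundant. Only 2 of them were lower without normal mouse 2, normal mouse 3 or any of high fat mice 1, 2 and 4. The same count of lower interneuron markers was found without a variance trend and without normal mice 2 and 3. Oligodendrocyte precursor markers, led by Olig1, were higher for 2 and lower for 1 of 5, astrocyte markers, led by Aldoc, were higher for 1 and lower for 2 of 7, endothelium markers, led by Cldn5, were lower for 1 of 4, and microglia markers, led by C1qa, passed for none of 6. In the covariate fit no interneuron or astrocyte marker was called. The part of these differences in the values of the CaM kinases was not tested.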

How the data were processed

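RNA from the cortex of each of the 8 mice was sequenced by the authors. Reads were checked with FastQC, trimmed with Trimmomatic and aligned to mm10 by STAR, and the deposited FPKM came from Cuffnorm with GENCODE M17 and are rounded to 0.1. The sources used here give no versions of these tools. Depth is unknown, so no counting interval is given. A second quantification by the authors was not used here.

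From the deposited FPKM, log2(FPKM + 0.1) was compared with limma 3.58.1 (R 4.3.3), fitting a variance trend and diet alone, and two-sided p-values were adjusted by Benjamini-Hochberg. Of 13996 genes, 12 with a 0 and 2 with a mean under 1 were left out. Python 3.11.15, numpy 2.4.6, pandas 2.3.3, scipy 1.17.1 and matplotlib 3.10.9 made tables and figures. Coordinates and coding sequences come from GENCODE M21 on GRCm38, later than M17.

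All 10 CaM kinase genes are named. From each partner list the text names genes past the threshold, up to 4 with the largest change each way, and 9 genes whatever their result (Calm2, Calm3, Camk2n1, Camk2n2, Camk1g, Pnck, Ppp3ca, Ppp3cb and Ppp3r1). From each marker list it names the most abundant gene, genes at 0 and up to 3 with the largest change. Some genes that these rules take are not reported here. Members and lists were chosen with earlier results of these data known. Alternatives were another constant, 2 other filters, 2 rescalings, a fit with no trend in variance, a block for the replicate number, the cerebellum covariate, normal mice 2 and 3 left out, and each mouse left out in turn.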

Additional observations from a re-analysis of the deposited data

Results flagged for a closer look

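Among 32 groups of 4 values examined (each CaM kinase gene, the CaMKII sum and shares and the ratio of Camk2a to Camk2b, in each diet), 1 held a sample far from the others. Camk2d was at 27.6 FPKM in high fat mouse 3 and at 44.9, 45.6 and 45.4 in the other 3, and the gap was 0.961 of the range of the group, above Dixon's 95% critical value for 4 samples. Chance marks about 1 group in 20. The same mouse had the highest Camk2a of all mice, at 292.4 FPKM, and Spink8 at 0.2 FPKM. What set Camk2d apart in this mouse was not tested.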

How the results depend on the processing

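The 10 log2 fold changes were refitted under 9 other ways of processing and after leaving out single mice. Of 90 values from other processing, 74 kept their direction and side of the threshold, 13 lost the threshold, 2 gained it and 1 turned its sign, which was Camkv at -0.0109 with the cerebellum list as a covariate. Of 80 values with a mouse left out, 65 kept both, 12 lost the threshold, 3 gained it and 0 turned.

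With the cerebellum list as a covariate, 1044 genes passed the threshold, and 2736 did without normal mice 2 and 3, against 4626 with all mice and diet alone. The 5 CaM kinase genes past it became 1 in each of these fits, Camk4. The 4 genes that lost their call also had smaller changes, and the median over the 10 genes was 0.06 and 0.12, against 0.26. The covariate takes a degree of freedom and varies with diet. Its slope rests mostly on the 4 normal mice, as given above, and the second fit has fewer samples. With each mouse left out the count of all genes lay between 3292 and 4618, that of CaM kinase genes between 2 and 7, that with a change over 50% between 0 and 1, and that without overlap between 4 and 6.

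With the replicate number as a block, 3390 genes and 2 CaM kinase genes (Camk4 and Camkv) passed. Mice with the same number did not deviate together (r from -0.109 to -0.0275, and no number correlated best with its own), so the number was not used as a pairing. FPKM rounded to 0.1 limits the precision of genes near 1 FPKM, and 4 mice per diet limit all fits.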
